A study of Macaca mulatta with 9 samples.

Results

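The lysosomal genes described here are a named set of 42: enzymes that digest proteins, sugars, sulfated sugars and lipids inside the lysosome, proteins of its membrane, and parts of the pump that acidifies it. Members were chosen by gene symbol and not by their values, and 41 of the 42 were found among the 24371 genes of the deposited table. GUSB was not analysed here. RNA was sequenced from the whole blood of 9 wild-type rhesus macaques (Macaca mulatta), 3 in each of 3 randomly assigned groups. One group was injected with extracellular vesicles from antler blastema progenitor cells (Evs-ABPC), one with vesicles labelled Evs-FBMSC, and one with PBS, the vehicle. Sample descriptions call the PBS animals Old, and no label gives an age, a dose or a time of sampling. Each library came from a different animal, so replicates are biological.

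The lysosome is an acidic compartment in which acid hydrolases break down material brought in by endocytosis, phagocytosis and autophagy. The V-type proton pump keeps it acidic, heavily glycosylated membrane proteins such as LAMP1 line its wall, and transporters export the products of digestion. Most hydrolases reach it on mannose 6-phosphate receptors, and inherited loss of many of them causes a storage disease. In blood, monocytes and neutrophils are rich in lysosomal enzymes, whereas mature red cells have lost their lysosomes.

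The deposited values were per-million values with 0.5 added, on a log2 scale, and they were turned back to per-million values. They behave like TPM, in which reads are divided by gene length and every library sums to about 1000000, so levels can be compared between genes, and they are written as TPM from here on. Libraries held 11.7 to 14.5 M recovered reads (M, reads in units of 1e6). Erythroid marker genes, mostly globins, summed to 713213 to 829486 TPM in Evs-ABPC libraries, 829261 to 880434 in Evs-FBMSC libraries and 887284 to 931243 in PBS libraries. Because the total is fixed, every other gene's value moves with that share. Both scales were therefore fitted for every member: as deposited, and after median-ratio scaling, which divides each library by a factor set so that the typical gene is level across libraries. Those factors were 1.5 to 2.49 in Evs-ABPC, 0.945 to 1.19 in Evs-FBMSC and 0.326 to 0.757 in PBS.

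Lysosomal transcripts spanned more than 2 orders of magnitude in level (the plot of TPM values by gene shows every library). PSAP, the precursor of the saposins that help enzymes reach their lipid substrates, was highest, with a mean of 289 TPM over the 9 libraries. Cathepsins S, B and D followed at 149, 129 and 96.7 TPM, and MAN2B1, lysosomal alpha-mannosidase, stood at 73.7 TPM. At the low end were CTSL, ARSB, NAGLU and ACP2, at 1.83, 1.49, 1.36 and 1.04 TPM. A member's recovered reads in a library ran from 9 to 21801, and 28 of the 41 had at least 100 reads in every library. All 41 passed the filter on low values (1 TPM or more, in no fewer than 3 libraries), 33 of them with such a value in all 9. CTSL, ARSB and ACP2 reached 1 in no PBS library, so they passed through the vesicle groups alone and had to be higher there. In all, 8 members reached 1 in fewer than 3 PBS libraries and needed the vesicle groups to pass. The others of these were NPC1, CTSC and NAGLU, with 1 such PBS library, and GAA and IDUA, with 2.

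**Figure D1:**
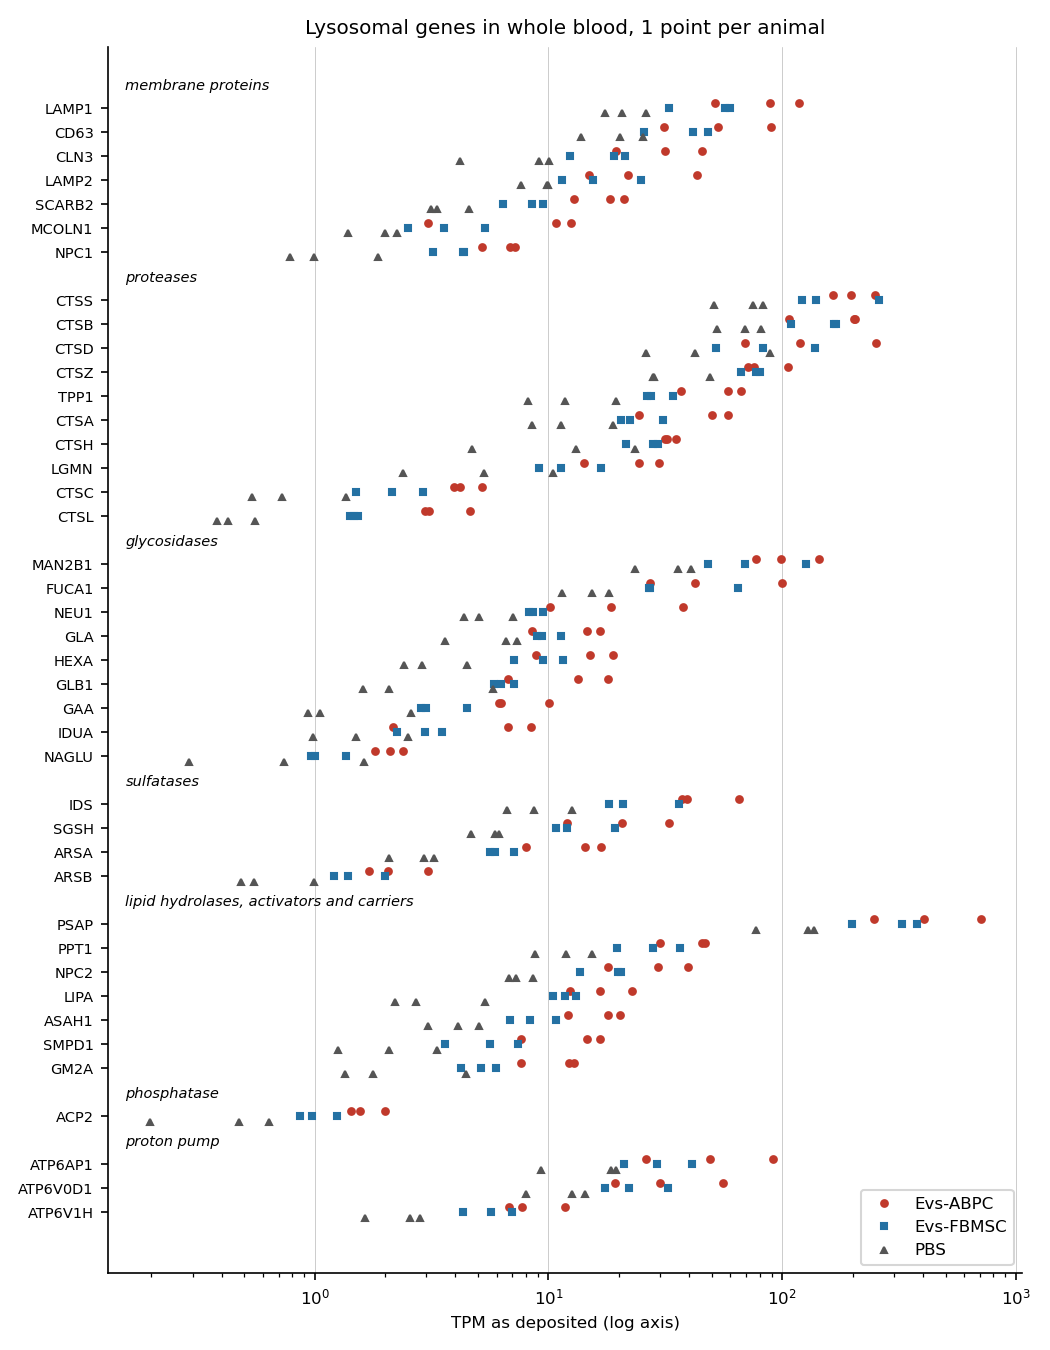
TPM values as deposited (horizontal log axis) of 41 lysosomal genes, grouped by role and ordered by mean level, with 1 point per animal. Evs-ABPC points lie to the right of PBS points in 39 of the 41 genes, and the Evs-FBMSC mean on the log2 scale lies between the other 2 in all 41.

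In Evs-ABPC against PBS, as deposited, all 41 members rose at an adjusted p under 0.05 (limma with trend on log2(value + 1), Benjamini-Hochberg over 10596 genes). This was also the course of the blood transcriptome at large: 90.9% of all genes tested rose by the same rule and 0.0566% fell. The rises of CTSL, ARSB and ACP2 carry less weight, since these members passed the filter through the vesicle groups alone. A like limit goes with NPC1, CTSC, NAGLU, GAA and IDUA, which needed the vesicle groups to pass. On log2(value + 1), which understates low genes such as NAGLU, the members' log2 fold changes ran from 0.77 for NAGLU to 2.22 for IDS. Their median was 1.67, beside a median of 1.41 over all genes. That order depended on the method. With a pseudocount of 0.1 the median was 1.85 for the members and 1.95 over all genes, and with limma-voom on recovered reads 1.89 and 2.04. Evs-ABPC and PBS libraries did not overlap in 39 of the 41 members, against 85.4% of all genes. CTSD and IDUA were the members whose groups overlapped. Leaving out 1 library at a time left 37 to 41 members past the threshold, and CTSB, CTSD, CTSH, CTSZ, LAMP2, GLA and NAGLU each missed it in at least 1 of those fits. In the same fits 8660 to 9638 of all genes passed in either direction, with 8660 of the 9887 tested without Evs-ABPC replicate 3. After median-ratio scaling, limma passed 0 of the 41 members and 0% of all genes. The members' scaled median was -0.14, from -0.76 for GLA to 0.49 for CTSL, beside 0.00 over all genes, with 16 members above 0 and 25 below. When 1 library was left out, that median ran from -0.29 without Evs-ABPC replicate 2 to 0.01 without Evs-ABPC replicate 1. Of the 41 scaled members, 3 had an unadjusted p under 0.05, namely CTSL above 0 and GLA and CTSZ below, while 3.08% of all genes did so above 0 and 7.12% below. Scaled libraries did not overlap in 2 members that lay higher in Evs-ABPC, CTSL and SMPD1, against 6.45% of all genes, and in 2 that lay lower, CTSZ and GLA, against 7.51%. Half-widths of the scaled 95% intervals, unadjusted for the number of genes, had a median of 0.55. Smaller log2 differences were thus mostly not detectable with 3 animals a group. Larger ones could also miss the adjusted threshold, as GLA did at -0.76.

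**Figure D2:**
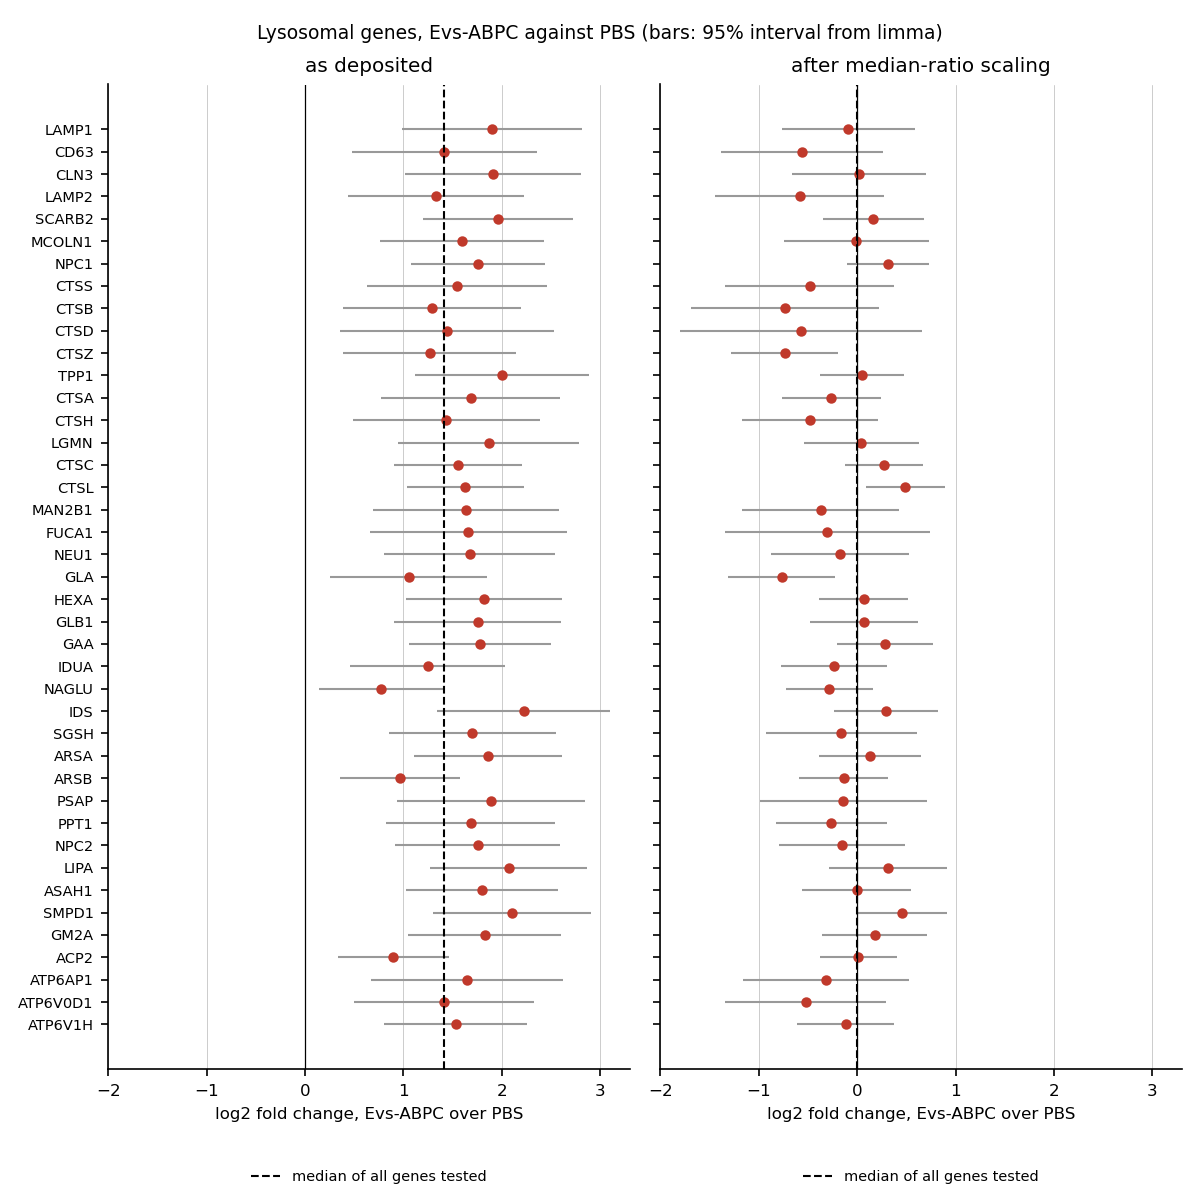
Log2 fold changes of Evs-ABPC over PBS (horizontal axis) for 41 lysosomal genes, as deposited on the left and after median-ratio scaling on the right, with 95% intervals from limma and a dashed line at the median of all genes tested. As deposited every gene lies above 0, around the all-gene median of 1.41, and after scaling the genes lie on both sides of 0.

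Among the membrane proteins, all 7 members rose as deposited in Evs-ABPC, where 90.9% of all genes did, and none passed after scaling. LAMP1, the main glycoprotein of the lysosomal membrane, was listed at 51.7, 118 and 88.7 TPM in Evs-ABPC, at 59.5, 56.8 and 32.7 in Evs-FBMSC and at 17.4, 20.7 and 26.1 in PBS. Every Evs-ABPC library was above every PBS library, by a log2 fold change of 1.90 (SE 0.44, limma adjusted p = 0.000671). After scaling the groups overlapped at 34.4, 55.4 and 35.7 in Evs-ABPC, 61.2, 47.7 and 34.6 in Evs-FBMSC and 53.4, 44.7 and 34.5 in PBS, a log2 difference from PBS of -0.09 (95% interval -0.76 to 0.59) for Evs-ABPC.

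CD63, a tetraspanin of late endosomes, lysosomes and vesicles and itself a common vesicle marker, had 31.1, 89.5 and 53.3 TPM in Evs-ABPC, 48.0, 41.5 and 25.5 in Evs-FBMSC and 13.8, 25.3 and 20.3 in PBS. Its log2 fold change of 1.42 as deposited was within 0.01 of the all-gene median at the pseudocount of 1. That median was 1.64 with a pseudocount of 0.5 and 1.95 with 0.1, so the closeness depends on the setting. The scaled difference of CD63 was -0.56 (95% interval -1.39 to 0.26). SCARB2, the receptor that carries glucocerebrosidase to the lysosome, had 12.9, 21.1 and 18.3 TPM in Evs-ABPC, 9.48, 8.47 and 6.39 in Evs-FBMSC and 3.34, 3.15 and 4.57 in PBS. The 3 groups of SCARB2 values did not overlap at all as deposited, but they overlapped after scaling, where its log2 difference between Evs-ABPC and PBS was 0.16. NPC1, which moves cholesterol out of the lysosome, had 5.20, 7.18 and 6.82 TPM in Evs-ABPC, 4.34, 4.32 and 3.19 in Evs-FBMSC and 0.989, 0.786 and 1.87 in PBS. NPC1 was likewise ordered Evs-ABPC, Evs-FBMSC, PBS without overlap, and in Evs-ABPC it rose by a log2 fold change of 1.76 as deposited (SE 0.33, limma adjusted p = 0.000417). It reached 1 TPM in 1 PBS library, so it needed the vesicle groups to pass the filter, which favoured values above PBS. Its scaled difference was 0.32, with overlap.

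The 10 proteases all rose as deposited in Evs-ABPC, where 90.9% of all genes did. After scaling they held both the highest member, CTSL, and, with CTSZ and CTSB, 2 of the 3 lowest. CTSB, an abundant cysteine cathepsin, had 106, 203 and 204 TPM in Evs-ABPC, 166, 170 and 109 in Evs-FBMSC and 81.2, 69.2 and 52.4 in PBS. CTSS, the cathepsin that trims the invariant chain in antigen-presenting cells, had 165, 249 and 198 in Evs-ABPC, 261, 139 and 121 in Evs-FBMSC and 51.3, 83.0 and 75.3 in PBS. Both separated Evs-ABPC from PBS as deposited, with log2 fold changes of 1.29 and 1.54. After scaling, CTSB stood at 70.9, 94.8 and 82.2 in Evs-ABPC, 171, 143 and 116 in Evs-FBMSC and 249, 149 and 69.2 in PBS, and its PBS libraries spanned the whole range. CTSS stood at 110, 116 and 79.5 in Evs-ABPC, 268, 117 and 128 in Evs-FBMSC and 157, 179 and 99.5 in PBS after scaling, with Evs-FBMSC replicate 1 far above the rest.

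CTSZ, a carboxypeptidase also called cathepsin X, had 71.5, 75.6 and 106 TPM in Evs-ABPC, 80.4, 77.1 and 66.9 in Evs-FBMSC and 28.1, 28.3 and 49.0 in PBS as deposited. Scaled, it had 47.6, 35.3 and 42.6 in Evs-ABPC, 82.7, 64.8 and 70.8 in Evs-FBMSC and 86.3, 61.0 and 64.7 in PBS. All 3 Evs-ABPC libraries then lay below the 6 others. The scaled log2 difference was -0.74 from PBS (SE 0.24, limma adjusted p = 0.32, unadjusted p = 0.0132) and -0.79 from Evs-FBMSC (limma adjusted p = 0.83, unadjusted p = 0.00932), so neither passed. CTSH, an aminopeptidase, had 31.5, 35.3 and 32.2 TPM in Evs-ABPC, 29.5, 28.0 and 21.4 in Evs-FBMSC and 4.73, 13.1 and 23.5 in PBS as deposited. Its PBS values spread widely, and its log2 fold change of 1.43 was 0.87 without PBS replicate 1 (limma adjusted p = 0.0659).

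CTSL, a cysteine cathepsin of low level in this blood, had 2.97, 3.07 and 4.61 TPM in Evs-ABPC, 1.41, 1.54 and 1.48 in Evs-FBMSC and 0.382, 0.556 and 0.427 in PBS. These came from 77, 54 and 90 recovered reads in Evs-ABPC, 38, 41 and 43 in Evs-FBMSC and 13, 20 and 12 in PBS. Its groups did not overlap as deposited. After scaling it had 1.98, 1.44 and 1.86 in Evs-ABPC, 1.45, 1.29 and 1.56 in Evs-FBMSC and 1.17, 1.20 and 0.564 in PBS. Both vesicle groups then lay above PBS, by a log2 difference of 0.49 in Evs-ABPC (SE 0.18, limma adjusted p = 0.366) and 0.32 in Evs-FBMSC (limma adjusted p = 0.997), neither of which passed. CTSL passed the filter through the vesicle groups alone, which favoured values above PBS, so these differences and p-values do not support a rise. The same limit goes with its rank among the members and with its share of their sum. CTSD, an aspartic protease, was the least even member after scaling, its highest library 4.13 times its lowest. TPP1, a tripeptidyl peptidase lost in a childhood neuronal storage disease, was the most even at 1.33 times, with 24.7, 31.2 and 23.5 in Evs-ABPC, 28.3, 28.7 and 28.0 in Evs-FBMSC and 25.0, 25.4 and 25.6 in PBS.

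The 9 glycosidases in the table all rose as deposited in Evs-ABPC, where 90.9% of all genes did. Their median log2 fold change was 1.66, beside 1.41 over all genes. MAN2B1 had 76.9, 98.8 and 144 TPM in Evs-ABPC, 127, 69.3 and 48.0 in Evs-FBMSC and 23.5, 35.8 and 40.6 in PBS. FUCA1, which removes fucose from glycoproteins, had 27.1, 99.3 and 42.5 in Evs-ABPC, 64.8, 27.3 and 26.8 in Evs-FBMSC and 11.4, 15.3 and 18.1 in PBS. In both genes all 6 vesicle libraries were above PBS as deposited, and Evs-FBMSC replicate 1 was the highest of its group. After scaling MAN2B1 had 51.2, 46.2 and 57.8 in Evs-ABPC, 130, 58.2 and 50.8 in Evs-FBMSC and 72.2, 77.2 and 53.6 in PBS, with a log2 difference between Evs-ABPC and PBS of -0.37 (95% interval -1.17 to 0.43). The scaled difference of FUCA1 was -0.30, and the vesicle groups overlapped PBS in both genes. HEXA, the alpha subunit of the enzyme lost in Tay-Sachs disease, had 8.82, 18.9 and 15.1 TPM in Evs-ABPC, 9.45, 11.5 and 7.14 in Evs-FBMSC and 2.42, 2.87 and 4.47 in PBS, a log2 fold change of 1.81 for Evs-ABPC as deposited (SE 0.38, limma adjusted p = 0.000449). Its scaled difference from PBS was 0.07, with overlap.

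GLA, the alpha-galactosidase lost in Fabry disease, had the lowest scaled log2 difference between Evs-ABPC and PBS of the 41. As deposited it had 8.47, 16.6 and 14.6 TPM in Evs-ABPC, 11.3, 9.40 and 8.91 in Evs-FBMSC and 3.60, 7.30 and 6.59 in PBS. Its rise in Evs-ABPC was among the smaller ones, with a log2 fold change of 1.05 (SE 0.39, limma adjusted p = 0.0141). After scaling it had 5.64, 7.76 and 5.87 in Evs-ABPC, 11.6, 7.90 and 9.43 in Evs-FBMSC and 11.1, 15.7 and 8.71 in PBS. All 3 Evs-ABPC libraries were then below the 6 others, by a log2 difference of -0.76 from PBS (SE 0.24, limma adjusted p = 0.291, unadjusted p = 0.0108). The scaled difference did not pass, and GLA was 1 of the 25 members below 0 on that scale.

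**Figure D3:**
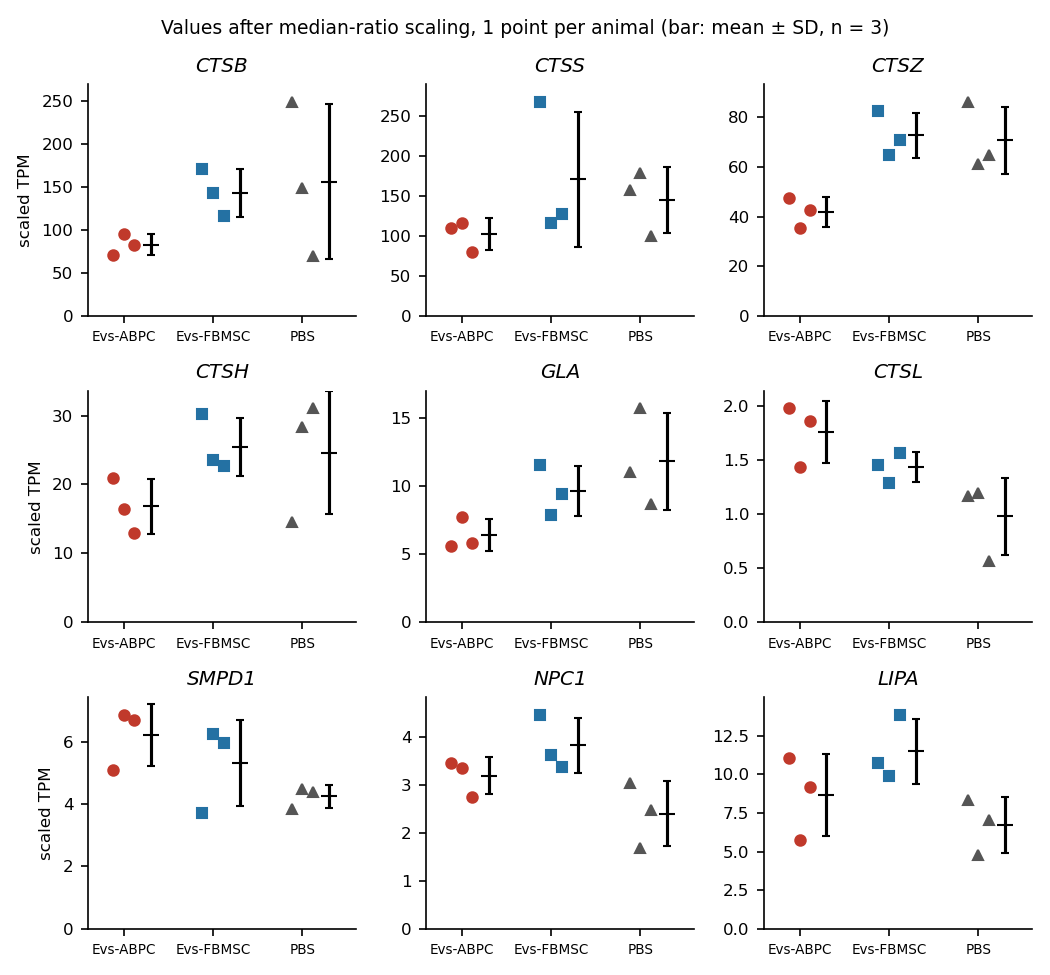
Scaled TPM values (vertical axes from 0) of 9 lysosomal genes by group, with 1 point per animal and the mean ± SD of each group of 3. CTSZ and GLA lie lowest in all 3 Evs-ABPC animals, CTSL lies lowest in the PBS animals, and CTSB and CTSS spread widely in PBS or Evs-FBMSC.

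All 4 sulfatases rose as deposited in Evs-ABPC, where 90.9% of all genes did. IDS, which removes sulfate from heparan and dermatan sulfate and is lost in Hunter syndrome, had 37.4, 39.3 and 65.3 TPM in Evs-ABPC, 20.8, 36.2 and 18.2 in Evs-FBMSC and 6.66, 8.65 and 12.6 in PBS. Its groups did not overlap. Its log2 fold change of 2.22 (SE 0.43, limma adjusted p = 0.000417) was the largest among the members on log2(value + 1), a scale that understates low genes. After scaling, IDS had 24.9, 18.4 and 26.3 in Evs-ABPC, 21.4, 30.4 and 19.3 in Evs-FBMSC and 20.4, 18.6 and 16.7 in PBS, with overlap and a log2 difference from PBS of 0.29 (95% interval -0.24 to 0.82). SGSH, another heparan sulfate sulfatase, had 12.1, 32.9 and 20.6 TPM in Evs-ABPC, 19.3, 10.7 and 11.9 in Evs-FBMSC and 4.66, 5.92 and 6.11 in PBS as deposited, and both vesicle groups lay above PBS. After scaling both overlapped PBS, with a log2 difference of -0.16 for Evs-ABPC.

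All 7 lipid hydrolases, activators and carriers rose as deposited in Evs-ABPC, where 90.9% of all genes did. Their median log2 fold change was 1.82, beside 1.41 over all genes. PSAP had 247, 706 and 406 TPM in Evs-ABPC, 376, 324 and 198 in Evs-FBMSC and 77.2, 129 and 137 in PBS. PPT1, a palmitoyl-protein thioesterase, had 29.9, 45.3 and 46.6 in Evs-ABPC, 36.6, 27.9 and 19.7 in Evs-FBMSC and 8.78, 11.8 and 15.4 in PBS. In both, all 6 vesicle libraries exceeded PBS as deposited. After scaling the groups overlapped in both, and the log2 difference between Evs-ABPC and PBS was -0.14 for PSAP and -0.26 for PPT1. SMPD1, the acid sphingomyelinase, had 7.63, 14.7 and 16.6 TPM in Evs-ABPC, 3.62, 7.42 and 5.64 in Evs-FBMSC and 1.25, 2.09 and 3.33 in PBS. Its 3 groups did not overlap as deposited. After scaling SMPD1 still lay above PBS in every Evs-ABPC animal, at 5.08, 6.87 and 6.68 in Evs-ABPC, 3.72, 6.23 and 5.97 in Evs-FBMSC and 3.84, 4.50 and 4.40 in PBS, but its log2 difference of 0.45 (SE 0.20, limma adjusted p = 0.493) did not pass. LIPA, the acid lipase that releases cholesterol from its esters, had 16.6, 12.3 and 22.9 TPM in Evs-ABPC, 10.4, 11.8 and 13.1 in Evs-FBMSC and 2.71, 2.21 and 5.35 in PBS as deposited, with every vesicle library above PBS.

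The 3 proton pump members rose as deposited in Evs-ABPC, where 90.9% of all genes did. ATP6AP1, an accessory subunit of the pump, had 26.2, 90.9 and 49.2 TPM in Evs-ABPC, 41.2, 29.1 and 21.1 in Evs-FBMSC and 9.30, 18.6 and 19.5 in PBS. ATP6V0D1, a subunit of its membrane sector, had 19.2, 55.9 and 30.0 in Evs-ABPC, 32.5, 22.0 and 17.4 in Evs-FBMSC and 8.02, 14.4 and 12.6 in PBS. Evs-ABPC replicate 2 was the highest library in both. After scaling all 3 members lay below 0 against PBS, from -0.52 to -0.11, and none passed. ACP2, the lysosomal acid phosphatase, was the only phosphatase, with a log2 fold change of 0.90 as deposited (limma adjusted p = 0.00444) and a scaled difference of 0.01.

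In Evs-FBMSC against PBS the members stood higher as deposited, but limma passed 0 of 41, where 0.255% of all genes rose and 0.00944% fell. On log2(value + 1), log2 fold changes ran from 0.22 for NAGLU to 1.59 for LIPA with a median of 0.97, beside 0.70 over all genes. At an unadjusted p under 0.05, 30 of 41 members were higher, against 43.6% of all genes, and in 35 members the groups did not overlap, against 50.9% of all genes. LIPA had the smallest p (SE 0.39, limma adjusted p = 0.0671), followed by NPC1 at 1.18 (limma adjusted p = 0.0859) and HEXA at 1.29 (limma adjusted p = 0.0876). NPC1 needed the vesicle groups to pass the filter, which limits the weight of its p. The count depended on the method and on single libraries. With a pseudocount of 0.1 it was 2, where 1.71% of all genes rose, with a filter on the scaled mean 1, where 1.33% did, and with the replicate number as a block 1, where 0.396% did. In a fit of these 2 groups alone 7 members passed, where 9.95% of all genes rose. With limma-voom on the recovered reads 24 members passed, where 31.3% of all genes rose, and without PBS replicate 3 the count was 27, where 43.3% of all genes rose. It was 3, 5 and 1 without Evs-ABPC replicates 1, 2 and 3, where 3.61%, 6.95% and 2.07% of all genes rose, and 0 without any other library. The Evs-ABPC replicates enter this comparison through the shared estimate of the spread and the filter on low values.

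After scaling, 0 of 41 members passed in Evs-FBMSC against PBS, with 29 above 0 and 12 below, a median of 0.12 and an all-gene median of 0.02. The sign of the members' median rested on single libraries. It was -0.05 without Evs-FBMSC replicate 1, -0.01 without PBS replicate 3 and up to 0.19, without PBS replicate 1, in the other fits. Of the 41 members 2 had an unadjusted p under 0.05, both higher, where 2.24% of all genes were higher and 2.6% lower. LIPA had 11.0, 5.76 and 9.20 in Evs-ABPC, 10.7, 9.89 and 13.9 in Evs-FBMSC and 8.32, 4.76 and 7.07 in PBS on the scaled values, a log2 difference for Evs-FBMSC of 0.71 (SE 0.27, limma adjusted p = 0.958, unadjusted p = 0.0255). NPC1 had 3.46, 3.36 and 2.75 in Evs-ABPC, 4.47, 3.63 and 3.38 in Evs-FBMSC and 3.03, 1.70 and 2.47 in PBS, a log2 difference for Evs-FBMSC of 0.52 (SE 0.19, limma adjusted p = 0.958, unadjusted p = 0.0204). LIPA and NPC1 thus each lay above PBS in every Evs-FBMSC animal. For NPC1 the filter favoured values above PBS, so its difference and p-values do not support a rise. CTSL, TPP1 and HEXA also did, making 5 members where 4.96% of all genes did so, and NEU1, a sialidase, lay below PBS in every Evs-FBMSC animal, as 4.71% of all genes did.

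Evs-ABPC exceeded Evs-FBMSC as deposited in the mean of all 41 members, yet limma passed 0 of 41, where 0.585% of all genes rose and 0.0566% fell. Log2 fold changes ran from 0.15 for CTSZ to 1.07 for SMPD1 with a median of 0.60, below the all-gene median of 0.71. The smallest adjusted p was 0.0737, which SMPD1, SCARB2 and CTSL shared with other members. The groups did not overlap in 15 of the 41 members, against 50.5% of all genes, and 11 members had an unadjusted p under 0.05, against 48% of all genes. Without Evs-ABPC replicate 1 the count passing was 16, where 45.6% of all genes rose, and without PBS replicate 3, which belongs to neither group, it was 6, where 25.6% did.

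After scaling, 32 of the 41 members lay lower in Evs-ABPC than in Evs-FBMSC, with a median of -0.20 beside -0.02 over all genes, and 0 passed. When 1 library was left out, the members' median ran from -0.35 without Evs-ABPC replicate 2 to -0.07 without Evs-FBMSC replicate 1. CTSZ was the only member at an unadjusted p under 0.05, where 3.97% of all genes were lower and 1.4% higher. In 5 members, the cathepsins CTSB, CTSH, CTSS and CTSZ and the galactosidase GLA, every Evs-ABPC animal was below every Evs-FBMSC animal, while 6.8% of all genes showed this. No member had every Evs-ABPC animal above every Evs-FBMSC animal, against 4.23% of all genes. CTSH had 21.0, 16.5 and 12.9 in Evs-ABPC, 30.3, 23.5 and 22.6 in Evs-FBMSC and 14.5, 28.3 and 31.1 in PBS on the scaled values. One CTSH PBS value lay within the Evs-ABPC range, one within the Evs-FBMSC range, and one was the highest of all 9.

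The make-up of the lysosomal sum does not depend on either scale, since each member's share is taken within its own library. These shares were computed after the other results had been seen and carry no test. Proteases took 41.6%, 36.0% and 39.1% of the summed members in Evs-ABPC, 42.6%, 41.9% and 43.8% in Evs-FBMSC and 47.5%, 46.8% and 42.2% in PBS. Lipid hydrolases, activators and carriers took 26.8%, 31.3% and 27.0% in Evs-ABPC, 26.5%, 29.2% and 26.8% in Evs-FBMSC and 23.1%, 23.4% and 25.9% in PBS. The protease share was thus lower in every Evs-ABPC animal than in every other animal, and the lipid share was higher in every Evs-ABPC animal than in every PBS animal, with gaps under 1 percentage point at their narrowest. Shares within a library trade off against each other, so these are not separate findings. PSAP took most of the lipid share, and its own share overlapped between Evs-ABPC (19.5% to 26.0%) and PBS (17.3% to 19.8%). The lipid gap therefore does not show a shift of that class as a whole. Within the PBS protease share, CTSB took 18.2%, 10.4% and 7.55% of the summed members and CTSD 5.89%, 13.3% and 6.12%. Shares of membrane proteins, glycosidases, sulfatases and the pump overlapped between Evs-ABPC and PBS.

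**Figure D4:**
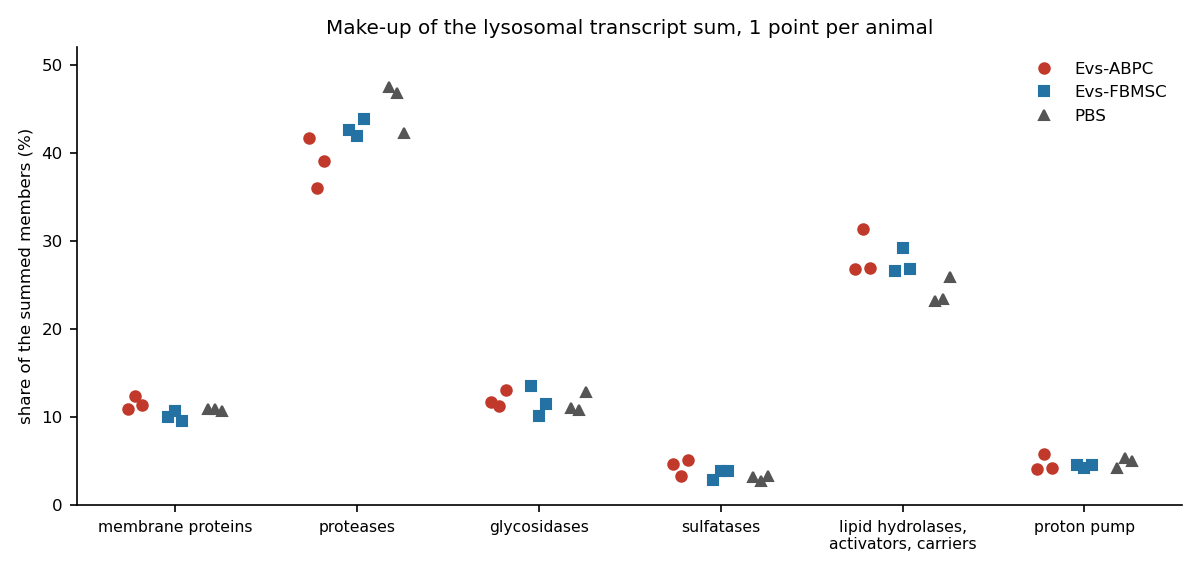
Share of the summed lysosomal TPM values (vertical axis, %) taken by each role, with 1 point per animal, for roles of 3 or more genes. The protease share was 36.0% to 41.6% in Evs-ABPC and 42.2% to 47.5% in PBS, and the lipid share was 26.8% to 31.3% in Evs-ABPC and 23.1% to 25.9% in PBS.

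Single genes within that sum told the same animals apart in few cases. LAMP1 took 4.09%, 4.36% and 4.33% of the sum in Evs-ABPC, 3.43%, 4.08% and 3.33% in Evs-FBMSC and 3.91%, 3.11% and 3.76% in PBS, so its Evs-ABPC shares were the 3 highest. SMPD1 took 0.603%, 0.540% and 0.811% in Evs-ABPC, 0.209%, 0.532% and 0.574% in Evs-FBMSC and 0.281%, 0.313% and 0.480% in PBS. GLA took 0.670%, 0.610% and 0.712% in Evs-ABPC, 0.651%, 0.675% and 0.908% in Evs-FBMSC and 0.809%, 1.10% and 0.950% in PBS, the reverse order. In all, 7 members (LAMP1, SCARB2, CLN3, CTSL, HEXA, ARSA and SMPD1) had higher shares in every Evs-ABPC than in every PBS animal, where 7.94% of all genes stood higher relative to the lysosomal sum. GLA alone had lower shares throughout, where 3.37% of all genes stood lower. PSAP took 19.5%, 26.0% and 19.8% in Evs-ABPC, 21.7%, 23.2% and 20.2% in Evs-FBMSC and 17.3%, 19.3% and 19.8% in PBS. It was the only member whose share was higher in every Evs-FBMSC than in every PBS animal, where 1.49% of all genes stood higher. LAMP1, SCARB2, CLN3 and NPC2 had higher shares in every Evs-ABPC than in every Evs-FBMSC animal, where 11.4% of all genes stood higher.

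Other genes of the lysosome stood on 4 further lists. As deposited in Evs-ABPC against PBS, 25 of 26 tested further hydrolases and activators rose, as did 27 of 27 membrane proteins and transporters, 13 of 14 pump subunits and 34 of 36 genes of enzyme sorting and lysosome biogenesis, beside the 90.9% of all genes that rose. After scaling 0 genes of any of these lists passed, and the medians were 0.03, 0.04, -0.54 and -0.06. Pump subunits were the lowest of these, with 12 of 14 below 0. ATP6V1E1, a stalk subunit of the pump, had scaled values of 21.4, 22.9 and 19.1 in Evs-ABPC, 64.2, 31.4 and 43.4 in Evs-FBMSC and 57.0, 63.6 and 42.3 in PBS. All Evs-ABPC animals were below all others, by a log2 difference from PBS of -1.30 (SE 0.29, limma adjusted p = 0.15), which did not pass. MTOR, the kinase that senses nutrients at the lysosome, had scaled values of 2.07, 2.40 and 2.95 in Evs-ABPC, 1.97, 2.46 and 2.24 in Evs-FBMSC and 1.52, 1.40 and 1.71 in PBS. Both vesicle groups lay above PBS, by a log2 difference of 0.44 in Evs-ABPC (limma adjusted p = 0.341) and 0.34 in Evs-FBMSC (limma adjusted p = 0.997), neither of which passed. ATP6V1E1 and MTOR were each named for the smallest scaled p of their list. MTOR also lay mostly under 1 TPM in PBS as deposited and needed the vesicle groups to pass the filter, so its values do not support a rise. In the other 2 comparisons limma passed 0 genes of the 4 lists on either scale.

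Whole blood mixes many cell types, and fewer cells of a type cannot be told apart from less RNA per cell. The summed members after scaling were 843, 1271 and 824 in Evs-ABPC, 1783, 1170 and 1039 in Evs-FBMSC and 1367, 1436 and 917 in PBS. Monocyte markers (14 of 16 in the table, none at 0) summed to 872, 660 and 476 in Evs-ABPC, 3265, 731 and 880 in Evs-FBMSC and 993, 1791 and 519 in PBS. Neutrophil markers (14 of 15, with ELANE at 0 in 2 libraries and with S100A8 and S100A9 shared with the monocyte list) summed to 809, 1431 and 482 in Evs-ABPC, 3694, 681 and 1071 in Evs-FBMSC and 1440, 2645 and 600 in PBS. Evs-FBMSC replicate 1 was highest in all 3 sums, and Evs-ABPC replicate 3 was lowest in all 3. Erythroid markers summed to 304434 to 552343 in Evs-ABPC, 697876 to 931623 in Evs-FBMSC and 1172270 to 2856150 in PBS on the same scale, without overlap. After scaling in Evs-ABPC against PBS, limma passed 0 genes of the 8 marker lists. The lists' median log2 differences were 0.08 for monocytes, -0.58 for neutrophils, 0.28 for eosinophils and basophils, 0.41 for T cells, 0.47 for NK and cytotoxic cells, -0.36 for B cells, -0.07 for platelets and -1.34 for erythroid cells. The part of these cell type markers in the lysosomal results was not tested.

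**Figure D5:**
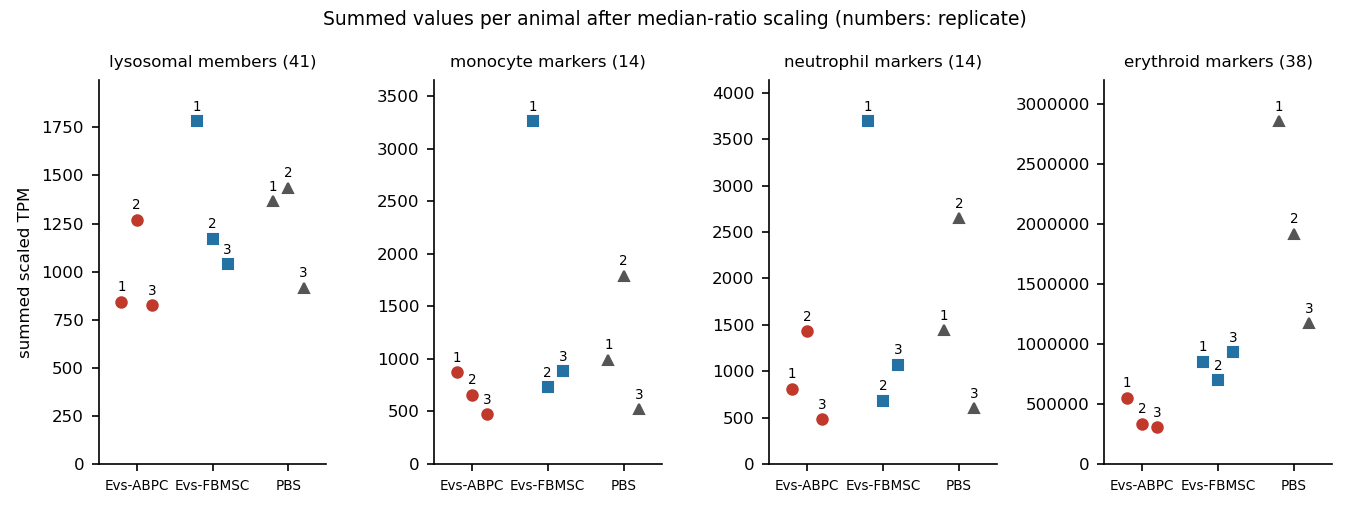
Summed scaled TPM values (vertical axes from 0) of the 41 lysosomal genes and of monocyte, neutrophil and erythroid marker lists, with 1 point per animal labelled by replicate number. Evs-FBMSC replicate 1 is the highest point of the lysosomal, monocyte and neutrophil sums, and the erythroid sum is lowest in the 3 Evs-ABPC animals.

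With the erythroid markers removed and the remaining values brought back to the same total, 0 of the 41 members passed in Evs-ABPC against PBS, where 17 of all genes passed in either direction. The members' median log2 fold change was then 0.61, beside 0.69 over all genes, and 18 members were higher at an unadjusted p under 0.05, against 32.5% of the 15336 genes that passed the filter on these values. CTSL at 1.5, SMPD1 at 1.28 and NPC1 at 1.15 were the highest members and GLA, at -0.08, was the lowest.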

How the data were processed

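The authors deposited log2 values for 24371 genes in 9 libraries of total RNA from whole blood, made with a NEBNext Ultra kit and sequenced paired-end, per the labels' protocols, with the genome build Mmul_10 per the submitters' processing notes. Alignment and counting used programs not given in the sources used here. Deposited values fit log2(per-million value + 0.5). These were turned back, and whole reads were recovered as multiples of 1 read per gene: 21550 of 21551 genes (99.995%) came out whole in all libraries within 0.001 reads. Recovered reads served for depth and for 1 alternative, since a count test was not the main one.

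Genes at 1 or more in at least 3 libraries (10596) were tested with limma 3.58.1 (trend, R 4.3.3) on log2(value + 1), with all 9 libraries in 1 fit, group as the only term and Benjamini-Hochberg adjustment at 0.05. Fold changes on that scale understate low genes. Median-ratio factors came from 13350 genes above 0 in all libraries. The fitting script was tested on simulated data, for the scaled fit of Evs-ABPC against PBS only. The simulation held no shift in the erythroid share, so it cannot show how the fits handle that shift. Alternatives were other pseudocounts, filters, no trend, fits of 2 groups, a replicate block, removal of erythroid markers, limma-voom on recovered reads, leaving out each library and, chosen after seeing the data, scaling by the summed members. Members, gene lists and tests were chosen with earlier results of these data known. Values per library are given for the 2 highest members of each role and the 3 with the smallest p in each comparison and scale. For the other lists, the gene with the smallest scaled p could be named. TPP1 and CTSD, the gene shares and the highest values without erythroid markers were chosen after their values were seen. The 2 comparisons with PBS share its 3 libraries. A test between 3 and 3 animals by permutation could not give a p below 0.1, so none was used. No sequence is shown, since no genome of this build was used here.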

Additional observations from a re-analysis of the deposited data

How the results depend on the processing

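As deposited, the count of 41 members that rose in Evs-ABPC against PBS was 39 to 41 under the other pseudocounts, filters, fits and limma-voom, and 0 with the erythroid markers removed, where GLA turned to a log2 fold change of -0.0761. Over all genes, 8504 with a filter on the scaled mean to 11691 with no filter passed in either direction under those pseudocounts, filters, fits and limma-voom. Leaving out 1 library gave 37 to 41, where 8660 to 9638 of all genes passed in either direction. The count of members was 37 without Evs-ABPC replicate 2, where CTSD, at 1.44 with all libraries, had a log2 fold change of 0.96 (limma adjusted p = 0.0615), and 37 without PBS replicate 1, where CTSH had 0.87. CTSB, CTSZ, LAMP2, GLA and NAGLU also missed the threshold in at least 1 of these fits. In Evs-FBMSC against PBS the count of 0 became 2 with a pseudocount of 0.1 (1.71% of all genes rose), 1 with a filter on the scaled mean (1.33%), 7 in a fit of the 2 groups (9.95% of all genes rose) and 24 with limma-voom (31.3%). It was 0 to 27 when 1 library was left out, where 13 to 4562 of all genes passed in either direction. In Evs-ABPC against Evs-FBMSC the count of members was 0 to 16 when 1 library was left out, where 48 to 4610 of all genes passed. Where 1 replicate of a group was left out, the remaining 2 shared the spread of all groups. After median-ratio scaling 0 members passed in each comparison under each of the alternatives run, scaling by the summed members included. The causes were not tested.

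Deviations of same-numbered libraries correlated between -0.25 and 0.28. With 3 libraries a group, such correlations cannot show whether the numbers paired animals. With the replicate block the as-deposited count was 41 in Evs-ABPC against PBS, where 9682 of the 10596 genes tested passed in either direction. It was 1 in Evs-FBMSC against PBS, where 0.396% of all genes rose, and 8 in Evs-ABPC against Evs-FBMSC, where 32% of all genes rose. CTSL, ACP2 and NAGLU had under 100 reads in every library, which limits the precision of their values.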
